A study of Homo sapiens with 24 samples.

Results

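Levels of 10 transcription factor genes of the primitive streak and early endoderm were examined in human embryonic stem cell lines: EOMES, TBXT, MIXL1, GSC, GATA4, GATA6, SOX17, FOXA2, HHEX and PRDM1. The members were all probe sets that the platform annotation assigned to exactly 1 of these symbols, which gave 21 probe sets for 10 genes, out of 41097 probe sets with a single symbol for 19775 genes. GATA4 had 5 probe sets, FOXA2 and PRDM1 had 3 each, GATA6, SOX17 and HHEX had 2 each, and the other 4 genes had 1 each. A probe set is a group of short probes that are read together as 1 level. That level is given here as the log2 value that the authors deposited after robust multi-array averaging (RMA).

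The series used 24 Affymetrix U133 Plus 2.0 arrays in 8 groups of 3. In the culture and inhibitor arrays, the lines H1, H9 and HSF1 gave 1 array each in 4 groups: feeder-supported culture with the MCT1 inhibitor AZD3965 (FS MCT1i), feeder-supported culture with its solvent DMSO (FS DMSO), feeder-free culture with the inhibitor (FF MCT1i) and feeder-free culture with DMSO (FF DMSO). AZD3965 blocks the lactate transporter MCT1 and was given at 250 nM for 5 days, and the feeders were mouse embryonic fibroblasts. In the medium arrays, feeder-free HSF1 and H9 cells were kept in fibroblast-conditioned medium (CM) or unconditioned medium (UM), with 3 biological replicates each (HSF1 CM, HSF1 UM, H9 CM and H9 UM). The duration in conditioned medium is uncertain, being 5 days on the labels of the CM arrays and 24 hours in the design text. The labels of the UM arrays give no duration. Each line is a single genetic background, the labels give no genotype change for any group, and a step to remove feeder cells before RNA extraction is not given in the sources used here. Each line stands once in every culture group, and whether the cultures of a line were separate is not given for these arrays.

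The primitive streak is the site where epiblast cells of the early embryo leave the pluripotent state and form mesoderm and endoderm. NODAL and WNT signals act on the epiblast there, and EOMES, TBXT (brachyury), MIXL1 and GSC are among the first transcription factors that cells switch on. GATA4, GATA6, SOX17, FOXA2 and HHEX mark or direct endoderm, and PRDM1 is a repressor used in endoderm and in germ cell precursors. Pluripotent cell cultures express these genes at low levels unless some cells begin to differentiate.

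Promoters of the members were read from RefSeq sequence of build GRCh38.p14, from 250 bases before to 50 bases after the start, and 9 promoters of 7 members were searched. The windows of EOMES and GATA6 are shown because these genes had the largest differences between cultures, MIXL1 because it held the motif matches, and HHEX because its level followed the medium. They are EOMES at chr3:27722274-27722573 (minus strand), MIXL1 at chr1:226223414-226223713 (plus strand), GATA6 at chr18:22169339-22169638 (plus strand) and HHEX at chr10:92689705-92690004 (plus strand). Capitals mark a motif match, and each window is written 5′ to 3′ on the strand of its gene.
EOMES: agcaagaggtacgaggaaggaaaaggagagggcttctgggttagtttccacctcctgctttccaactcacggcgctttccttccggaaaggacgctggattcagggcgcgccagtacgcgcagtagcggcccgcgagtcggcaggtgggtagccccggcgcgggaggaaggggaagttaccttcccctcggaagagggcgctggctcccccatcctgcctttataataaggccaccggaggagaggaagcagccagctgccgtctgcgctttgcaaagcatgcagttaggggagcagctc
MIXL1: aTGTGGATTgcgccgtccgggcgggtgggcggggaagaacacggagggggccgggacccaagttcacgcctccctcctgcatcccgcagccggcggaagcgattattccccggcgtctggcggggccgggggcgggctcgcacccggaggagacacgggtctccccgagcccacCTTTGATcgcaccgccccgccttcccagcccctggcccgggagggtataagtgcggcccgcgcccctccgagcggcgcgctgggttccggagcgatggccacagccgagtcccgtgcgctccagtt
GATA6: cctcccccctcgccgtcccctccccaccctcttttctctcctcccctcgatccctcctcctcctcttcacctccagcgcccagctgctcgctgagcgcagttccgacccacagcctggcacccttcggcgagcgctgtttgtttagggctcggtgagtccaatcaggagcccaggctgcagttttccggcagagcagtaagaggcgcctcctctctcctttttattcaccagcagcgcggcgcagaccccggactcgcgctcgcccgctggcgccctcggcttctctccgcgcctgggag
HHEX: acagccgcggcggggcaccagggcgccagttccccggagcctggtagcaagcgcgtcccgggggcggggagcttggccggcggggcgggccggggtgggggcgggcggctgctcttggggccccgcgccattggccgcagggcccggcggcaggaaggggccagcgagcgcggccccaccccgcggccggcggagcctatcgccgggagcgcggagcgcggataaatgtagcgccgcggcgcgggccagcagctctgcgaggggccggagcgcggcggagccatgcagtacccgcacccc
The letters searched on both strands were TGTGGATT for FOXH1, CTTTGAT for TCF/LEF factors, AGGTGTGA for T-box factors and AGATAA for GATA factors. FOXH1 carries NODAL signals and TCF/LEF factors carry WNT signals. Of the members, MIXL1 had matches, 1 for FOXH1 that began at -249 and 1 for TCF/LEF that began at -76 relative to the start, and these did not overlap. Over 35116 promoters of the same length, 0.817% held the FOXH1 letters, 2.62% the TCF/LEF letters, 0.980% the T-box letters and 10.3% the GATA letters. The other 8 promoters searched held none of these letters in this window.

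Array medians ran from 6.09 to 6.35 on the log2 scale. The feeder-supported arrays had a narrower spread of levels: the interquartile range over probe sets was 2.45 on both feeder-supported HSF1 arrays and 2.66 to 2.85 on the other feeder-supported arrays, against 3.08 to 3.30 on the feeder-free arrays of the same experiment. Probe sets with a feeder-free DMSO level of 7 or more had a median difference of -0.54 between FS DMSO and FF DMSO, and probe sets within the members' own feeder-free range, 3.07 to 6.85, had a median difference of 0.29. The ACTB difference, the 3′ minus the 5′ control probe set and a measure of RNA integrity, ran from -0.31 to 1.19 on feeder-supported arrays and from 0.47 to 1.17 on feeder-free arrays. In the medium experiment it was 1.07, 3.25 and 2.89 on the H9 UM arrays, against 1.42 to 1.84 on the other medium arrays. The part of these properties in the results below was not tested beyond the alternatives named.

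Feeder-supported cells had higher levels of streak and endoderm regulators than feeder-free cells of the same lines. With the inhibitor, 9 of the 10 genes rose on feeders at an adjusted p under 0.05, each counted by its brightest probe set on average over all arrays, and 19.5% of all genes tested rose. With DMSO, 9 of the 10 genes rose, and 15.5% of the 17218 genes tested rose. FOXA2 was the gene that did not pass by that probe set with the inhibitor, and TBXT was the one with DMSO. By probe set, 16 of the 19 tested rose with the inhibitor and 0 fell, against 21.1% of all probe sets that rose. With DMSO, 13 of the 19 rose and 0 fell, against 16.3% of 42032. All 21 differences were above 0 with either treatment, with a median of 1.12 and a range of 0.32 to 5.11 on the log2 scale with the inhibitor and a median of 0.87 and a range of 0.34 to 3.95 with DMSO. Most probe sets at the members' feeder-free levels also lay above 0. Their median was 0.36 with the inhibitor and 0.29 with DMSO, with a lower quartile of -0.01 in both. The smallest member differences thus lay near that median. In bulk arrays, more cells that express a gene and more RNA per cell cannot be told apart.

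Adjusted p-values come from limma with the line as a block and Benjamini-Hochberg adjustment over all probe sets tested. A probe set was tested where it exceeded 5 on at least 3 of 12 arrays. Of the 21 probe sets, 19 passed, and 7 of these passed only through feeder-supported arrays, namely those of GSC and of 1 each for GATA4 (1570276_a_at), GATA6 (210002_at), SOX17 (219993_at), FOXA2 (210103_s_at), HHEX (204689_at) and PRDM1 (228964_at). Those 7 were tested because their feeder-supported levels were high, so their selection favours a rise on feeders. With the inhibitor all of them except HHEX by 204689_at are among the probe sets that rose. With DMSO, GSC, GATA6 by 210002_at, SOX17 by 219993_at and PRDM1 by 228964_at are. GSC and SOX17 also enter both gene counts by such a probe set, so these calls are weaker support. Among probe sets at the members' feeder-free levels, 36.6% of those tested rose with the inhibitor and 27.9% with DMSO. With the inhibitor the count of genes that rose was 5 without H1 (EOMES, TBXT, MIXL1, GSC and SOX17), and 2 with the ACTB difference as a covariate. The HHEX call with the inhibitor was lost without H1 or H9, that of GATA6 by 229282_at without any 1 of the 3 lines, and those of GATA4 by 1553131_a_at and PRDM1 by 235668_at without H1. With DMSO the count was 2 without H1 (MIXL1 and PRDM1), 2 without H9 (EOMES and SOX17) and 8 without HSF1 (MIXL1 was lost), and 0 with that covariate. Without the feeder-supported HSF1 arrays alone, 8 genes rose with either treatment.

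**Figure D1:**
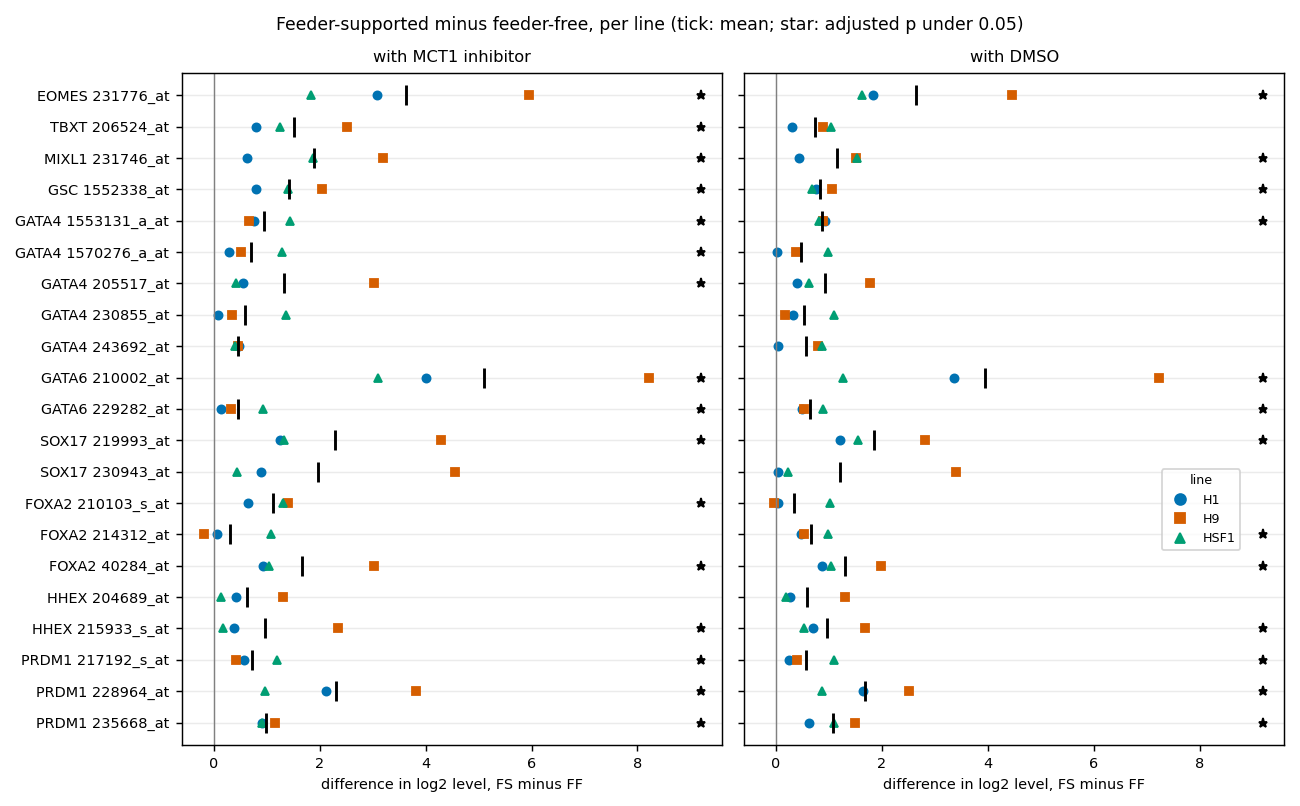
Difference in log2 level between feeder-supported and feeder-free culture for each of the 21 probe sets, with the MCT1 inhibitor (left) and with DMSO (right). Points are the 3 lines, the tick is their mean and a star marks an adjusted p under 0.05. All 21 means lie above 0 in both panels, and the H9 point lies furthest right for EOMES and for GATA6 210002_at. The median over all probe sets at the members' feeder-free levels was 0.36 with the inhibitor and 0.29 with DMSO.

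EOMES, a T-box factor that is required for streak and endoderm formation in mice, showed the second largest difference by probe set after GATA6. With the inhibitor its levels were 9.02 in H1, 11.40 in H9 and 8.82 in HSF1 on feeders, against 5.93, 5.45 and 6.97 in the same lines without feeders. With DMSO they were 7.61, 10.45 and 6.97 on feeders, against 5.78, 5.99 and 5.34 without. All feeder-supported levels lay above the feeder-free levels of the same treatment, and H9 on feeders was the highest array with either treatment. EOMES rose by 3.63 with the inhibitor (SE 0.69, adjusted p = 0.0042), a 12.4-fold difference, and by 2.64 with DMSO (SE 0.69, adjusted p = 0.0163), a 6.23-fold difference. The DMSO difference was 1.73 without H9 (adjusted p = 0.0421) and 3.04 without H1 (adjusted p = 0.0626).

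In all 8 groups, EOMES averaged 9.74 ± 1.44 in FS MCT1i, 8.34 ± 1.85 in FS DMSO, 6.12 ± 0.78 in FF MCT1i, 6.01 ± 0.07 in HSF1 CM, 5.74 ± 0.27 in H9 CM, 5.71 ± 0.33 in FF DMSO, 5.63 ± 0.08 in HSF1 UM and 5.27 ± 0.52 in H9 UM (SD, n = 3 each). The step between FS DMSO and FF MCT1i exceeded the larger SD of both groups, and the other steps between neighbours did not. The SD of an FS or FF group is a spread over 3 lines. That of a CM or UM group is a spread over 3 replicates of 1 line, so the SDs are not alike.

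TBXT, the factor that names the T-box family and marks nascent mesoderm, had a smaller difference. With the inhibitor its levels were 7.80, 9.10 and 8.23 in H1, H9 and HSF1 on feeders, against 7.01, 6.58 and 6.97 without feeders. With DMSO they were 7.31, 7.93 and 7.55 on feeders, against 7.0, 7.05 and 6.51 without. The feeder-supported and feeder-free arrays did not overlap with either treatment. TBXT rose by 1.52 with the inhibitor (SE 0.29, adjusted p = 0.0039), and its difference with DMSO, 0.74, did not pass (SE 0.29, adjusted p = 0.0544).

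MIXL1, a homeobox factor that responds to NODAL and WNT signals, had levels of 5.71, 8.23 and 6.78 with the inhibitor on feeders, against 5.08, 5.02 and 4.91 without feeders, in H1, H9 and HSF1. With DMSO its levels were 5.54, 6.88 and 6.08 on feeders, against 5.11, 5.36 and 4.54 without. H1 on feeders was the closest to the feeder-free levels and H9 the furthest from them. MIXL1 rose by 1.90 with the inhibitor (SE 0.37, adjusted p = 0.0047) and by 1.16 with DMSO (SE 0.37, adjusted p = 0.0316). Without H9 the inhibitor difference was 1.25 (adjusted p = 0.0370).

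GSC, a homeobox repressor of the anterior streak, had levels of 5.55, 6.83 and 6.05 with the inhibitor on feeders, against 4.75, 4.78 and 4.64 without feeders. With DMSO its levels were 5.13, 6.18 and 5.52 on feeders, against 4.37, 5.12 and 4.84 without. Every line was higher on feeders with either treatment, and H9 was again the highest. GSC rose by 1.42 with the inhibitor (SE 0.21, adjusted p = 0.0015) and by 0.83 with DMSO (SE 0.21, adjusted p = 0.0151).

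**Figure D2:**
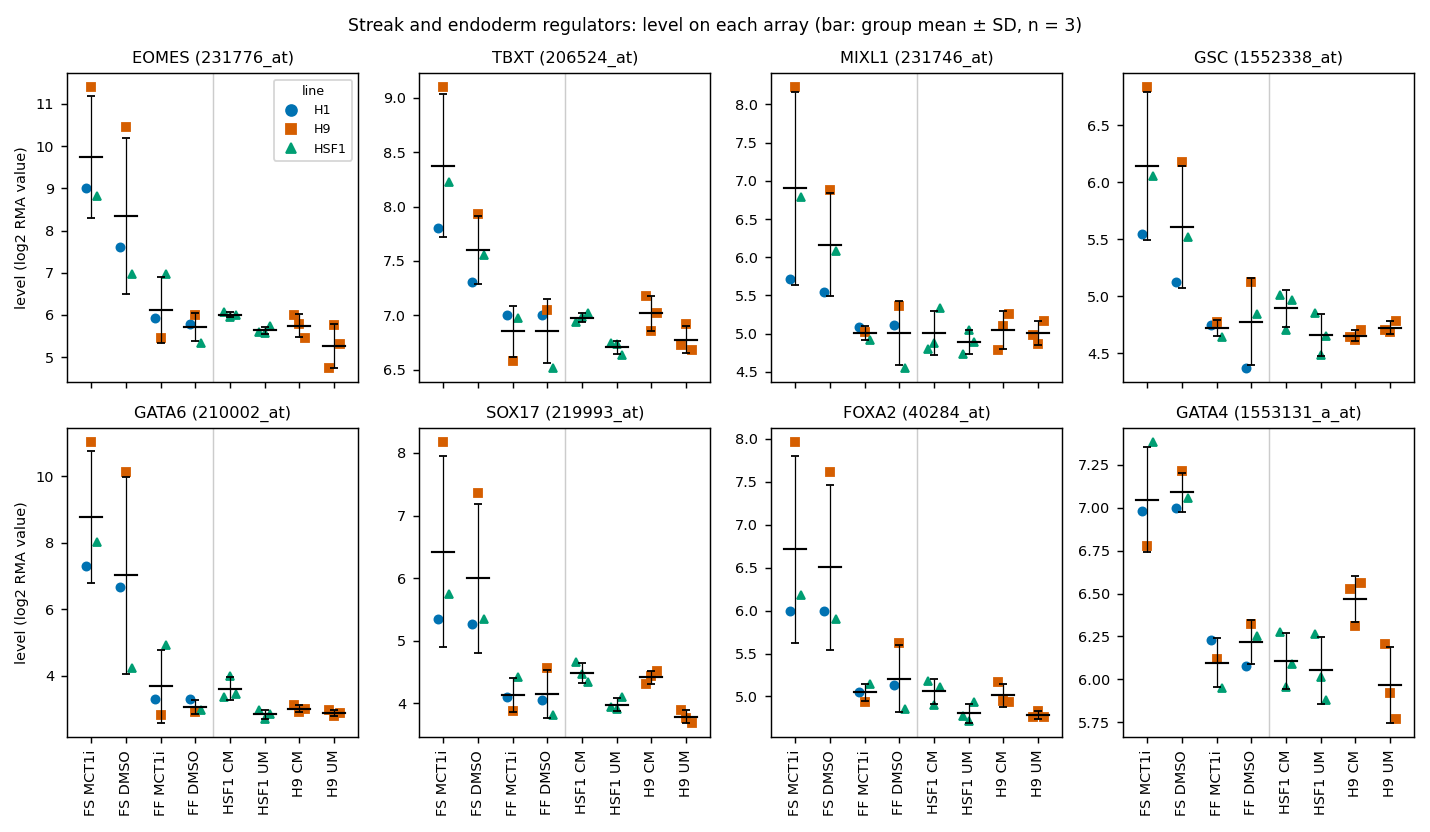
Level on each array in log2 RMA units for 8 members, 1 probe set each, over the 8 groups; horizontal bars are group means and whiskers are SD (n = 3). EOMES, TBXT, MIXL1, GSC and GATA6 stand highest in the feeder-supported groups, with the H9 square uppermost in both, and the conditioned and unconditioned medium groups sit near the feeder-free groups.

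GATA6 and GATA4 are zinc finger factors of primitive endoderm, definitive endoderm and heart. The GATA6 probe set 210002_at held the largest difference of all 21, with levels of 7.30, 11.03 and 8.03 with the inhibitor on feeders in H1, H9 and HSF1, against 3.29, 2.81 and 4.93 without feeders. With DMSO the levels were 6.68, 10.15 and 4.24 on feeders, against 3.31, 2.92 and 2.97 without. HSF1 was low on feeders with DMSO, and it was the highest line without feeders with the inhibitor. This probe set rose by 5.11 with the inhibitor (SE 1.08, adjusted p = 0.0063) and by 3.95 with DMSO (SE 1.08, adjusted p = 0.0188). The DMSO difference was 2.32 without H9 (adjusted p = 0.0715) and 4.25 without H1 (adjusted p = 0.0722). The other GATA6 probe set, 229282_at, rose by 0.46 with the inhibitor (adjusted p = 0.0486) and by 0.64 with DMSO (adjusted p = 0.0195). Both probe sets thus rose, but their sizes differed widely. GATA6 enters the gene counts by 229282_at, whose call was lost in 10 of 14 alternatives with the inhibitor and in 4 of 14 with DMSO. With the inhibitor its groups overlapped, and its difference lay below the upper quartile of 0.54 over all probe sets at feeder-free levels of 6 to 7. The inhibitor difference of 229282_at was 0.24 without HSF1 (adjusted p = 0.191).

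The GATA4 probe set with the highest mean, 1553131_a_at, had levels of 6.98, 6.78 and 7.38 in H1, H9 and HSF1 with the inhibitor on feeders, against 6.23, 6.12 and 5.95 without feeders, and rose by 0.95 (SE 0.19, adjusted p = 0.0049). It had levels of 7.0, 7.22 and 7.06 with DMSO on feeders, against 6.07, 6.32 and 6.25 without feeders. The groups did not overlap with either treatment, and with DMSO the 3 lines differed by 0.92, 0.89 and 0.81. It rose by 0.87 with DMSO (SE 0.19, adjusted p = 0.0086). Of the 3 other GATA4 probe sets tested, 1570276_a_at and 205517_at rose with the inhibitor, and 0 passed with DMSO, with differences of 0.47 to 0.93. The remaining tested probe set, 230855_at, differed by 0.597 with the inhibitor (adjusted p = 0.0605) and by 0.528 with DMSO (adjusted p = 0.0946). GATA4 by 243692_at stayed under the filter and was not tested. With the inhibitor, 1570276_a_at and 205517_at were higher on feeders in each of the 3 lines. The groups overlapped for 205517_at, with 5.96 in HSF1 without feeders against 5.89 in H1 on feeders. The calls of 1570276_a_at and 205517_at were lost in 7 of 11 and in 5 of 12 alternatives. The difference of 1570276_a_at was 0.69, and 0.40 without HSF1 (adjusted p = 0.103). That of 205517_at was 1.33, and 0.48 without H9 (adjusted p = 0.123).

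SOX17, an SRY-box factor that directs definitive endoderm, had levels of 5.35, 8.17 and 5.75 in H1, H9 and HSF1 with the inhibitor on feeders, against 4.11, 3.88 and 4.42 without feeders, by the probe set 219993_at. With DMSO these were 5.27, 7.37 and 5.35 on feeders, against 4.06, 4.56 and 3.80 without. On feeders H9 stood above the next line by 2.42 with the inhibitor and by 2.02 with DMSO. This probe set rose by 2.29 with the inhibitor (SE 0.48, adjusted p = 0.0062) and by 1.85 with DMSO (SE 0.48, adjusted p = 0.0160). Without H9 the inhibitor difference was 1.28 (adjusted p = 0.0162). The second SOX17 probe set, 230943_at, stayed under the filter and was not tested. Its levels on feeders were 4.59, 8.32 and 4.56 with the inhibitor and 3.75, 6.98 and 3.78 with DMSO, so H9 alone was above 5.

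FOXA2, a forkhead factor of anterior streak and endoderm, had 3 probe sets that differed in size. By 40284_at its levels with the inhibitor were 5.99, 7.96 and 6.19 in H1, H9 and HSF1 on feeders, against 5.05, 4.94 and 5.15 without feeders, and it rose by 1.67 (SE 0.35, adjusted p = 0.0059). With DMSO its levels by that probe set were 6.0, 7.61 and 5.90 on feeders, against 5.14, 5.62 and 4.86 without, and it rose by 1.30 (SE 0.35, adjusted p = 0.0176). The groups did not overlap with either treatment, and H9 was the highest line on feeders. Without H9 the inhibitor difference was 0.99 (adjusted p = 0.0235), and without H1 the DMSO difference was 1.52 (adjusted p = 0.0581). The probe set with the highest mean, 214312_at, differed by 0.32 with the inhibitor (adjusted p = 0.243) and rose by 0.67 with DMSO (adjusted p = 0.0365). With the inhibitor its groups overlapped, and the lines differed by 0.06, -0.18 and 1.07 in H1, H9 and HSF1. In contrast, 210103_s_at rose by 1.12 with the inhibitor (adjusted p = 0.0050). With DMSO it differed by 0.34 (adjusted p = 0.215), with overlapping groups.

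HHEX, a homeobox factor of anterior endoderm, had levels of 5.47, 7.01 and 5.70 with the inhibitor on feeders, against 5.08, 4.67 and 5.52 without feeders, by 215933_s_at. With DMSO its levels were 5.62, 6.64 and 5.61 on feeders, against 4.93, 4.95 and 5.08 without. H9 on feeders was the highest array with either treatment. It rose by 0.97 with the inhibitor (adjusted p = 0.0390) and by 0.97 with DMSO (SE 0.35, adjusted p = 0.0440). The lines differed by 0.38, 2.34 and 0.18 in H1, H9 and HSF1 with the inhibitor, and without H9 the difference was 0.28 (adjusted p = 0.306). With DMSO it was 0.61 without H9 (adjusted p = 0.0864). The call was lost in 7 of 13 alternatives with the inhibitor and in 8 of 13 with DMSO. The other HHEX probe set, 204689_at, differed by 0.62 with the inhibitor (adjusted p = 0.0648) and by 0.59 with DMSO (adjusted p = 0.0831). Neither was as far apart as for EOMES, and the HHEX groups overlapped with the inhibitor.

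PRDM1, a zinc finger repressor also known as BLIMP1, rose by all 3 of its probe sets with either treatment. By 235668_at its levels were 6.93, 7.34 and 7.26 with the inhibitor on feeders, against 6.02, 6.18 and 6.34 without feeders, and it rose by 1.0 (SE 0.19, adjusted p = 0.0046). With DMSO they were 7.03, 7.65 and 7.17 on feeders, against 6.41, 6.17 and 6.06 without feeders, and it rose by 1.07 (SE 0.19, adjusted p = 0.0046). The groups did not overlap with either treatment. By 228964_at PRDM1 rose by 2.30 with the inhibitor (adjusted p = 0.0044), and its levels were 6.88, 7.52 and 5.59 with DMSO on feeders, against 5.24, 5.00 and 4.72 without, and it rose by 1.68 (SE 0.45, adjusted p = 0.0173). HSF1 was the line with the smallest difference for that probe set. By 217192_s_at PRDM1 rose by 0.72 with the inhibitor (adjusted p = 0.0175) and by 0.57 with DMSO (adjusted p = 0.0432). The DMSO call of 217192_s_at was lost in 9 of 12 alternatives, with differences of 0.19 to 0.74 and an adjusted p of up to 0.696, and its difference was 0.32 without HSF1 (adjusted p = 0.104). The DMSO call of 228964_at was lost without H1 (adjusted p = 0.0804) or H9 (adjusted p = 0.0703).

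Within the feeder-supported cultures the lines differed in height. H9 was the highest of the 3 lines for 14 of the 21 probe sets with the inhibitor and for 14 with DMSO. Over all 54613 probe sets H9 was the highest line in 23.4% of cases with the inhibitor and in 16.7% with DMSO, and HSF1 was the highest in 53.1% and 51.1%. The probe sets led by H9 included EOMES, TBXT, MIXL1, GSC, both of SOX17 and both of HHEX with either treatment. Without feeders, H9 was the highest for 5 probe sets with the inhibitor and for 11 with DMSO. With 1 array per line and condition, a line and its array cannot be told apart.

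The summed level of the 25 fibroblast and feeder cell markers moved with culture. It ran from 35046 to 54627 on FS MCT1i arrays and from 34936 to 51286 on FS DMSO arrays, against 12523 to 17368 on FF MCT1i arrays and 10295 to 22843 on FF DMSO arrays, in linear RMA units. With the inhibitor, 9 of the 25 markers rose on feeders, 3 fell and 13 did not pass. With DMSO 11 rose, led by S100A6, CDH11, IGFBP7 and TWIST1, 0 fell and 14 did not pass. Of the 25, 0 lay under 5 on all arrays of any of these groups. Of the 3 lines on feeders, H9 had the lowest sum with either treatment, 35046 with the inhibitor and 34936 with DMSO, and H1 the highest, 54627 and 51286. Summed trophoblast and amnion markers ran from 1252 to 2099 on FS MCT1i arrays and from 1248 to 2089 on FS DMSO arrays, against 956 to 1200.4 on FF MCT1i arrays and 757 to 917 on FF DMSO arrays. Of 10 such markers tested, 5 rose and 1 fell with the inhibitor, and 5 rose and 0 fell with DMSO. Of 11 neuroectoderm markers, 6 rose and 1 fell with the inhibitor, and 7 rose and 0 fell with DMSO. These marker counts stand against all genes tested, of which 19.5% rose and 27.9% fell with the inhibitor. With DMSO 15.5% rose and 24.5% fell. These shares depended on level. Of probe sets tested at the members' feeder-free levels, 36.6% rose with the inhibitor and 27.9% with DMSO. At feeder-free levels of 7 or more, 4.42% and 3.88% rose. A linear sum is weighted to its brightest markers, and some of these were also bright without feeders. In feeder-free H9 CM, THY1 averaged 11.44, VIM 11.43, SPARC 10.71 and COL1A2 10.28, whereas LUM averaged 2.55. In that group TFAP2C of the trophoblast list averaged 9.12 and NES of the neuroectoderm list 10.60, so a sum does not measure a cell type alone. The part of feeder RNA, which is mouse RNA on probes of human sequence, or of other differentiating cells in the members' levels was not tested.

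Genes that act with the members were followed in lists, each gene by its brightest probe set. Their counts stand against all genes tested, of which 19.5% rose and 27.9% fell with the inhibitor. With DMSO, 15.5% of all genes tested rose and 24.5% fell, and these shares depended on level as given above. Of 13 NODAL pathway genes, 6 rose and 1 fell on feeders with the inhibitor, and 4 rose and 2 fell with DMSO, with a median difference of 0.24 with the inhibitor and 0.16 with DMSO, against -0.04 over all 19775 genes in both. LEFTY1, a NODAL target and inhibitor, rose by 2.83 with the inhibitor and by 3.42 with DMSO, and NODAL itself rose by 2.83 and by 2.32. FURIN, a convertase that cleaves the NODAL precursor, rose by 0.85 with the inhibitor and by 0.86 with DMSO. The receptor gene ACVR2B fell by 1.12 with the inhibitor.

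Of 13 canonical WNT ligands and targets, 6 rose with the inhibitor and 5 with DMSO, and 0 fell with either. Among probe sets at the members' feeder-free levels, 36.6% rose with the inhibitor and 27.9% with DMSO. The WNT target genes SP5 and DKK4 rose by 2.02 and 2.46 with the inhibitor and by 1.53 and 1.14 with DMSO. Of 20 streak and mesoderm companions, 10 rose and 2 fell with the inhibitor, and 6 rose and 2 fell with DMSO. FGF8 and FGF17, growth factors of the streak, rose by 1.30 and 0.94 with the inhibitor and by 1.11 and 0.74 with DMSO, and ZIC2 fell by 1.32 with DMSO. SP5 stands in both of these lists.

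Of 20 endoderm companions, 7 rose and 2 fell with the inhibitor, and 5 rose and 5 fell with DMSO, shares of risers near those of probe sets at the members' feeder-free levels. CER1, a secreted NODAL and WNT inhibitor of anterior endoderm, rose by 4.14 with the inhibitor (adjusted p = 0.0046), and CXCR4, a chemokine receptor used to sort definitive endoderm, rose by 2.58 (adjusted p = 0.0048). The hyaluronan synthase HAS2 rose by 2.40 with DMSO, whereas NEDD9 fell by 1.49. Of 11 pluripotency genes, 7 fell with the inhibitor and 5 with DMSO, and 0 rose with either. Their median difference was -0.42 with the inhibitor and -0.46 with DMSO. All probe sets with a feeder-free level of 7 or more, where most of these genes lay, had medians of -0.55 with the inhibitor and -0.54 with DMSO, and 43.2% and 38.4% of them fell. SOX2 fell by 0.76 with the inhibitor and by 0.53 with DMSO, the DMSO value being no larger than that median, and FOXD3 fell by 1.74 with the inhibitor and by 1.66 with DMSO.

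The MCT1 inhibitor was compared with DMSO within each culture system. On feeders, 0 of the 19 member probe sets tested passed in limma, 2 had an unadjusted p under 0.05, and of all probe sets tested 0.00238% passed and 1.63% had such an unadjusted p. The 4 streak factors were higher with the inhibitor in each of the 3 lines, with overlapping groups. EOMES differed by 1.40 (SE 0.69, adjusted p = 1.00), with 1.40, 0.94 and 1.85 in H1, H9 and HSF1. TBXT differed by 0.78 (SE 0.29, unadjusted p = 0.0182), MIXL1 by 0.74 (SE 0.37, unadjusted p = 0.0704) and GSC by 0.54 (SE 0.21, unadjusted p = 0.0264), and the adjusted p of each was 1.00. Of the 21 probe sets, 8 were higher in all 3 lines, against 14% of all probe sets.

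The largest difference among endoderm factors was that of GATA6 by 210002_at, 1.76 (SE 1.08, adjusted p = 1.00), with 0.62 in H1, 0.88 in H9 and 3.78 in HSF1. The other members' differences on feeders ran from -0.22 for FOXA2 by 214312_at to 0.99 for SOX17 by 230943_at. With weights fitted per array, in a fit that stopped before it converged, 10.6% of all probe sets rose and 9.02% fell. In that fit 5 members fell and the EOMES difference was -0.50 (adjusted p = 0.488), so its sign depended on the weighting of arrays.

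Without feeders, 0 of 19 probe sets passed and 0 had an unadjusted p under 0.05, against 0.545% and 7.21% of all probe sets tested. EOMES had levels of 5.93, 5.45 and 6.97 with the inhibitor, against 5.78, 5.99 and 5.34 with DMSO, in H1, H9 and HSF1. HSF1 was higher with the inhibitor by 1.63 and H9 was lower, and the HSF1 level of GATA6 by 210002_at was higher by 1.95. The inhibitor effect on feeders minus that without feeders was 0.99 for EOMES (SE 0.97), 0.78 for TBXT (SE 0.40), 0.74 for MIXL1 (SE 0.53) and 0.59 for GSC (SE 0.30), and 0 of 19 member probe sets passed in limma, 1 with an unadjusted p under 0.05, against 0.00476% and 2.09% of all. An interaction p that misses the threshold does not show equal effects.

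**Figure D3:**
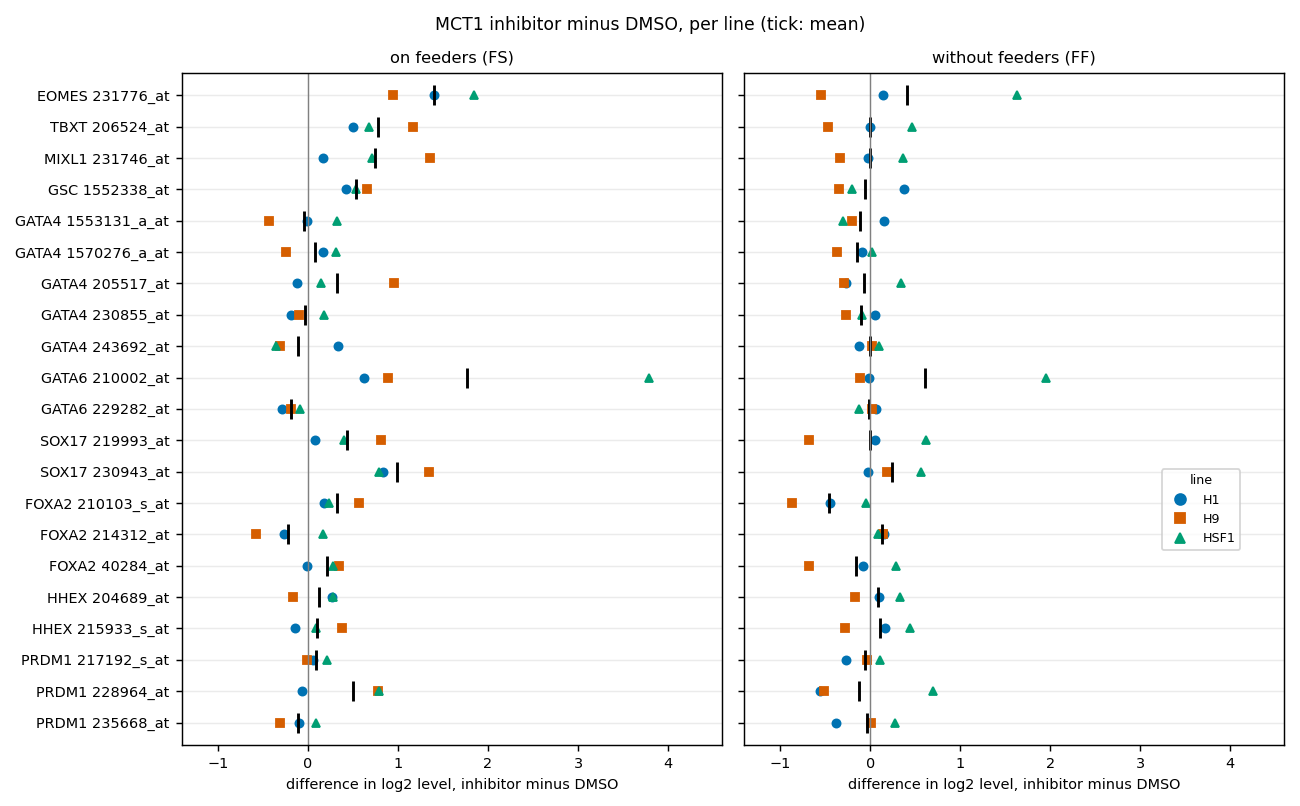
Difference in log2 level between MCT1 inhibitor and DMSO for each probe set on feeders (left) and without feeders (right). Points are the 3 lines and ticks their means; on feeders the points of EOMES, TBXT, MIXL1 and GSC all lie right of 0, and no probe set passed the test in either panel.

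Conditioned medium was compared with unconditioned medium in feeder-free HSF1 and H9 cells. HHEX was the member that rose in both lines. Of the 21 probe sets, 15 passed the filter on the medium arrays, and 4 of these passed only through the CM arrays, namely HHEX by 204689_at, MIXL1 and FOXA2 by 210103_s_at and by 40284_at. HHEX by 204689_at was above 5 on 6 CM arrays and 2 UM arrays, so it was tested because its CM levels were high. By 204689_at its levels were 6.29, 6.58 and 6.48 in HSF1 CM, against 5.22, 4.99 and 5.17 in HSF1 UM, and 5.23, 5.25 and 5.45 in H9 CM, against 4.99, 4.98 and 4.68 in H9 UM. The CM and UM arrays did not overlap in either line, and HSF1 CM stood above every other group of the series for this probe set. HHEX rose by 1.33 in HSF1 (SE 0.12, adjusted p = 5.73e-06) and by 0.42 in H9 (SE 0.12, adjusted p = 0.0365), and the rise was larger in HSF1 by 0.90 (SE 0.17, adjusted p = 0.0105). With no filter the adjusted p was 4.3e-06 in HSF1, 0.0444 in H9 and 0.0119 for the difference between lines. The difference in H9 was 0.32 with an adjusted p of 0.43 without both H9 UM arrays of high ACTB difference, an alternative chosen after seeing the data. The call in H9 was also lost without any 1 of H9 UM replicates 2 and 3, H9 CM replicates 1, 2 and 3 or HSF1 UM replicate 3, with an adjusted p of 0.0505 to 0.157.

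By the second HHEX probe set, 215933_s_at, levels were 6.80, 6.91 and 6.32 in HSF1 CM, against 5.31, 5.40 and 5.55 in HSF1 UM, and 5.27, 5.64 and 5.69 in H9 CM, against 4.09, 4.37 and 5.01 in H9 UM. It rose by 1.26 in HSF1 (SE 0.21, adjusted p = 0.0012) and by 1.04 in H9 (SE 0.21, adjusted p = 0.0067). Here the effect differed between lines by 0.22 (SE 0.29, adjusted p = 0.744), so the probe sets of this gene disagreed on a difference between lines. In UM, HHEX by this probe set was higher in HSF1 than in H9 by 0.93 (SE 0.21, adjusted p = 0.0073), where 8.28% of all probe sets tested were higher, and 204689_at differed by 0.24 (adjusted p = 0.184).

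Over the 8 groups, HHEX by 215933_s_at averaged 6.68 ± 0.32 in HSF1 CM, 6.06 ± 0.83 in FS MCT1i, 5.96 ± 0.59 in FS DMSO, 5.53 ± 0.23 in H9 CM, 5.42 ± 0.12 in HSF1 UM, 5.09 ± 0.42 in FF MCT1i, 4.98 ± 0.08 in FF DMSO and 4.49 ± 0.47 in H9 UM (SD, n = 3 each). The step between FF DMSO and H9 UM exceeded the larger SD of its neighbours and the other steps did not. That step sets a mean over 3 lines against replicates of H9 alone from the other experiment, so it is not a contrast of culture or medium. HHEX was thus ordered unlike EOMES, whose highest groups were both feeder-supported.

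**Figure D4:**
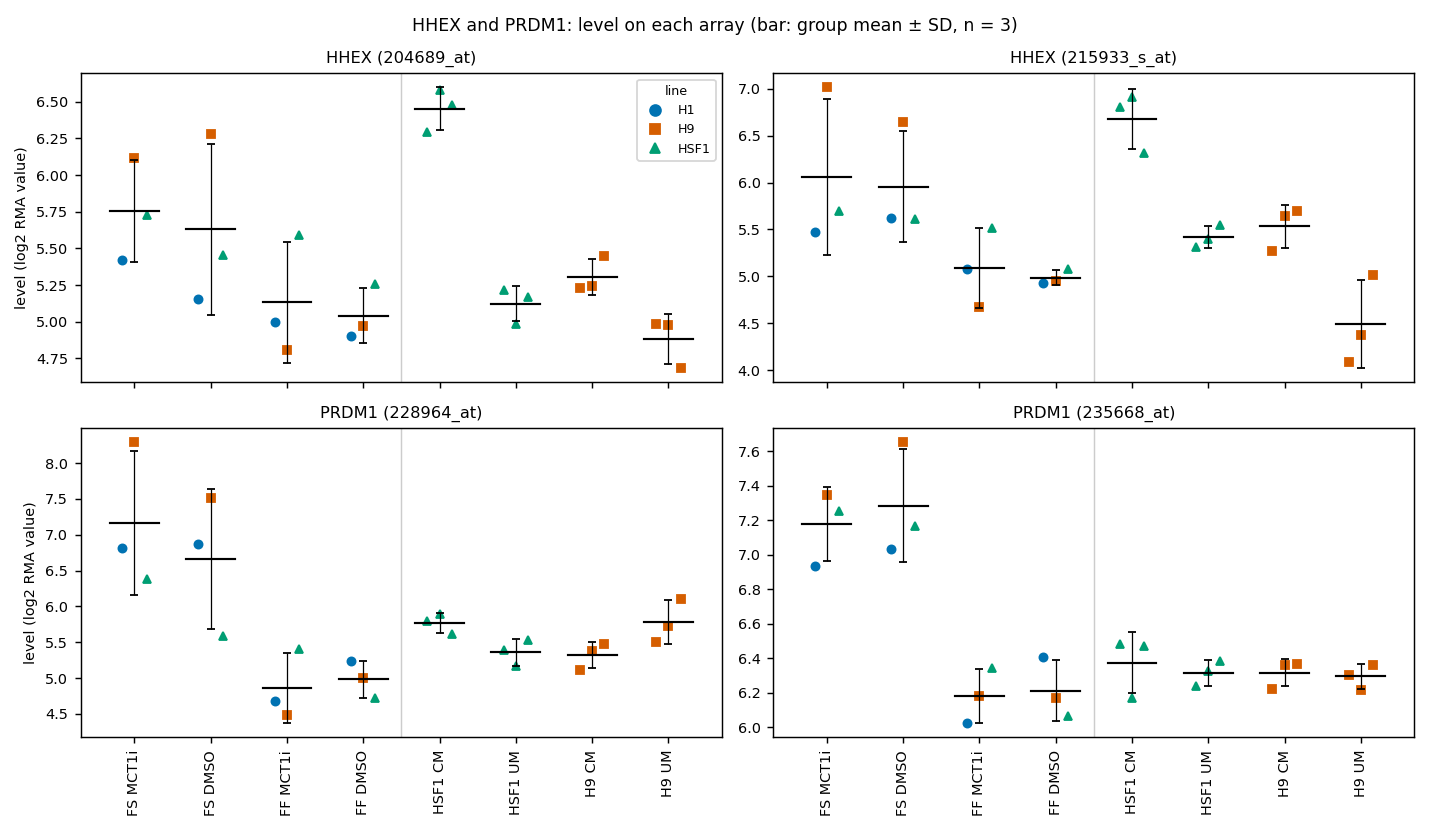
Level on each array in log2 RMA units for both HHEX probe sets and for PRDM1 by 228964_at and 235668_at, over the 8 groups; bars are group means and whiskers are SD (n = 3). HHEX is highest in HSF1 CM, and PRDM1 is highest in the feeder-supported groups.

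In HSF1, 2 of the 15 member probe sets tested rose with CM, both of HHEX, against 4.81% of all probe sets tested, and in H9 3 rose, against 2.64%. In each line 1 of these, HHEX by 204689_at, was tested only through its CM arrays. The third in H9 was GATA4 by 1553131_a_at, with levels of 6.53, 6.31 and 6.56 in H9 CM, against 6.21, 5.92 and 5.77 in H9 UM, a rise of 0.50 (SE 0.13, adjusted p = 0.0302). In HSF1 that probe set differed by 0.05 (adjusted p = 0.85), and the difference between lines was -0.45 (SE 0.19, adjusted p = 0.19). The GATA4 difference in H9 was 0.26 with an adjusted p of 0.591 without both H9 UM arrays of high ACTB difference. By the mean over all GATA4 probe sets it was 0.17, and the call was lost without any 1 of H9 UM replicates 2 and 3 or H9 CM replicates 1 and 3, with an adjusted p of 0.0823 to 0.131.

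PRDM1 by 228964_at had levels of 5.80, 5.90 and 5.62 in HSF1 CM, against 5.39, 5.16 and 5.54 in HSF1 UM, and 5.12, 5.38 and 5.47 in H9 CM, against 5.50, 5.73 and 6.11 in H9 UM. The groups did not overlap in either line and lay in opposite directions. The differences were 0.41 in HSF1 (SE 0.15, adjusted p = 0.105) and -0.46 in H9 (SE 0.15, adjusted p = 0.0703), and the effect in HSF1 minus that in H9 was 0.86 (SE 0.22, adjusted p = 0.0382), against 4.56% of all probe sets that passed this comparison. The difference between lines lost its call without any 1 of the 6 HSF1 arrays, H9 UM replicate 3 or H9 CM replicates 1 and 2, with an adjusted p of 0.0505 to 0.102. The other PRDM1 probe sets differed by -0.08 to 0.11 in either line.

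None of the streak factors tested passed between media. EOMES had levels of 6.07, 5.94 and 6.01 in HSF1 CM, against 5.59, 5.58 and 5.73 in HSF1 UM, and 5.99, 5.79 and 5.45 in H9 CM, against 4.74, 5.77 and 5.31 in H9 UM. The CM arrays lay above the UM arrays in HSF1 and overlapped them in H9, with differences of 0.37 (SE 0.20, adjusted p = 0.265) and 0.47 (SE 0.20, adjusted p = 0.14). TBXT differed by 0.27 in HSF1 and 0.24 in H9, and MIXL1 by 0.12 and 0.04, and none of these passed. GSC, GATA6 by 210002_at and SOX17 by both of its probe sets stayed under the filter on the medium arrays and were not tested. SOX17 by 219993_at averaged 4.49 ± 0.16 in HSF1 CM, against 3.98 ± 0.11 in HSF1 UM, and 4.41 ± 0.11 in H9 CM, against 3.78 ± 0.11 in H9 UM (SD, n = 3 each), without overlap in either line.

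**Figure D5:**
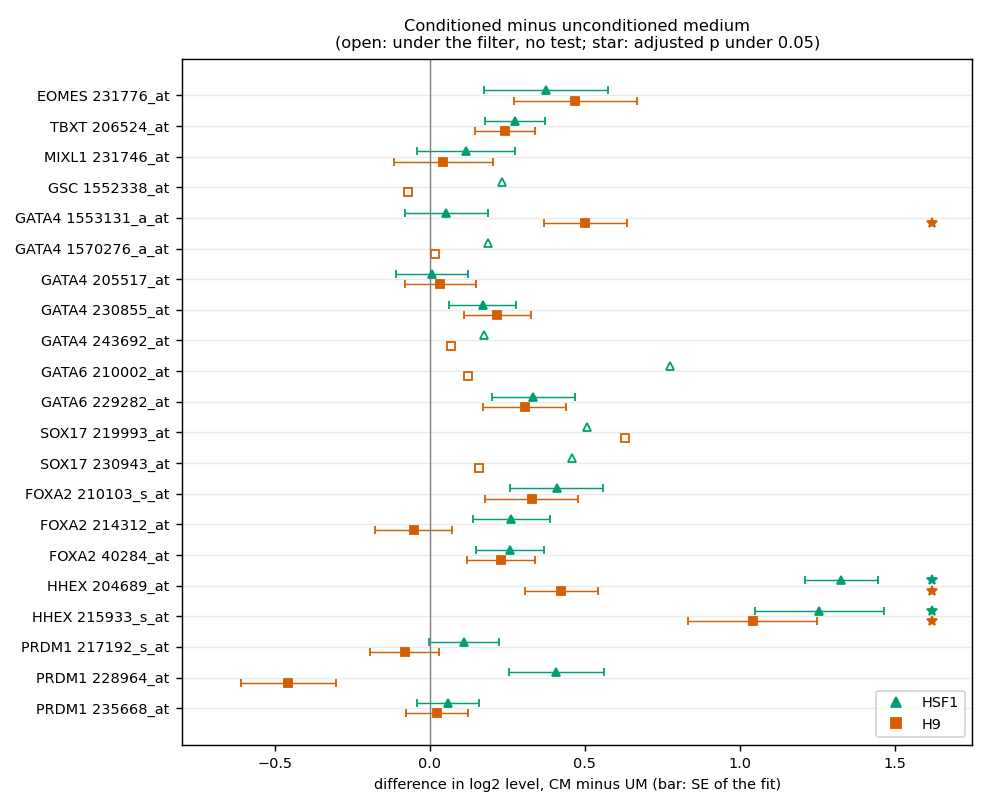
Difference in log2 level between conditioned and unconditioned medium for each probe set in HSF1 (triangles) and H9 (squares), with the SE of the fit. Open symbols were under the filter and a star marks an adjusted p under 0.05; both HHEX probe sets are starred in both lines, and PRDM1 228964_at lies on opposite sides of 0.

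NODAL and LEFTY1 rose with conditioned medium in both lines, by 0.80 and 1.54 in HSF1 and by 1.27 and 1.74 in H9. Of the 13 NODAL pathway genes, 3 rose in each line and 0 fell. Of all genes tested, 6.7% rose and 7.91% fell in HSF1, and 2.34% rose and 9.8% fell in H9. Of 10 WNT genes tested, 3 rose and 1 fell in HSF1, where SP5 rose by 0.67 and WNT5A fell by 0.79. In H9 0 rose and WNT5A fell by 0.77. Of 19 streak and mesoderm companions tested, 2 rose and 1 fell in each line, where FGF8 rose by 0.46 in HSF1 and 0.59 in H9. SNAI2 fell by 0.98 in HSF1 and fell by 0.81 in H9. Of 18 endoderm companions tested, 2 rose and 2 fell in HSF1, and 2 rose and 3 fell in H9. The WNT inhibitor FRZB rose by 0.95 in HSF1, and SHISA2 fell by 0.74 in HSF1 and by 0.48 in H9.

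Summed trophoblast and amnion markers ran from 1566 to 1821 in HSF1 CM, against 892 to 905 in HSF1 UM, and from 1002 to 1150.1 in H9 CM, against 733 to 860.4 in H9 UM. Of 8 such markers tested, 4 rose in HSF1 and 2 in H9, and 0 fell in either line. Among all genes tested 6.7% rose in HSF1 and 2.34% in H9. TFAP2A rose by 2.08 in HSF1 and 1.63 in H9. Of the 12 markers, 4 lay under 5 on every HSF1 CM array and 4 on every H9 CM array. Summed neuroectoderm markers ran from 2881 to 2992 in HSF1 CM, against 2351 to 2523 in HSF1 UM, without overlap, and from 1965 to 2441 in H9 CM, against 2118 to 2515 in H9 UM. Of 10 such markers tested, 3 rose in HSF1, namely ZIC1, SIX3 and DLK1, and 1 in H9, SIX3, and 0 fell. Of 11 pluripotency genes, 5 rose and 1 fell in HSF1, and 3 rose and 0 fell in H9. PRDM14 rose by 0.69 in HSF1 and 1.33 in H9, and OTX2 rose by 0.81 in HSF1. The summed fibroblast markers were 10133 to 11593 in HSF1 CM, against 13001 to 13607 in HSF1 UM, and 12502 to 13603 in H9 CM, against 12908 to 14028 in H9 UM. These linear sums too are weighted to their brightest markers. The part of any of these marker groups in the HHEX result was not tested.

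For the 8 members whose brightest probe set had group means spanning at least 1, the genes with the nearest pattern over the 24 arrays were ranked by Pearson r among 17262 genes, as a description over arrays that share lines and culture groups. FOXQ1 (r = 0.978) and CXCR4 (r = 0.974) lay nearest to EOMES. CXCR4 (r = 0.976) and LINC00479 (r = 0.970) lay nearest to SOX17. DKK4 lay nearest to both TBXT (r = 0.964) and MIXL1 (r = 0.956), followed for both by TMPRSS11E, with 0.951 for TBXT and 0.943 for MIXL1. LINC00479 (r = 0.952) and DKK4 (r = 0.949) lay nearest to GSC, SELP (r = 0.945) and MCHR2 (r = 0.942) to GATA4, and SHH (r = 0.949) and ZEB1 (r = 0.944) to PRDM1. The nearest to HHEX were FST (r = 0.877) and HES4 (r = 0.863), lower than for the other members ranked. GATA6 and FOXA2 were not ranked, since their brightest probe sets spanned 0.91 and 0.76.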

How the data were processed

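Total RNA was hybridised to 24 Affymetrix U133 Plus 2.0 arrays. The authors deposited log2 values per probe set, made with RMA per the submitters' processing notes, and its version is not given in the sources used here. Each of the 54675 probe sets has 1 value per array, and 0 other per-sample columns were left unused. Probe sets were named through the platform annotation, and all 10 genes matched the RefSeq gene table.

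The deposited log2 values were fitted with limma 3.58.1 (R 4.3.3), with an intensity trend and without further scaling, separately for the 12 culture and inhibitor arrays, with the line as a block, and for the 12 medium arrays, without a block. The lines pair the culture arrays by design. The replicate numbers of the medium arrays were not used as pairs, since the labels name no shared day or batch. Deviations of same-numbered arrays correlated at -0.318 to 0.111 in H9. Such values cannot exclude pairing: the H9 arrays of FS MCT1i and FF MCT1i, paired by line, correlated at 0.006. Probe sets above 5 on at least 3 of 12 arrays were tested, 42032 in the culture part and 39849 in the medium part, leaving out 62 control probe sets. P-values were adjusted by Benjamini-Hochberg over all probe sets tested, with a threshold of 0.05. Precision is limited by the number of arrays. The fit was checked on simulated data. Figures and tables used Python 3.11.15.

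All probe sets of the 10 members are named, with up to 4 genes of each list past the threshold by smallest p, and the 2 genes nearest by Pearson r for members whose brightest probe set had group means spanning at least 1 log2 unit. The members and lists were chosen with earlier results of these data known. Alternatives were other scalings, filters, array weights, an ACTB covariate, the mean of all probe sets, the block, and leaving out arrays.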

Additional observations from a re-analysis of the deposited data

Results flagged for a closer look

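The effect of conditioned medium on HHEX by probe set 204689_at differed between lines: the rise in HSF1 exceeded that in H9 by 0.90 on the log2 scale, by a test of the difference itself in limma (SE 0.17, adjusted p = 0.0105). The CM level was above the UM level on 3 of 3 arrays in both lines. This probe set passed the filter only through CM arrays, 6 of them above 5 against 2 UM arrays, and its UM levels, 4.68 to 5.22, lay around that floor. With no filter the adjusted p was 0.0119. The second HHEX probe set, 215933_s_at, gave 0.22 (adjusted p = 0.744).

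The effect on PRDM1 by 228964_at also differed, by 0.86 (SE 0.22, adjusted p = 0.0382), with a difference of 0.41 in HSF1 and -0.46 in H9. It was 0.58 (adjusted p = 0.208) without both H9 UM arrays of high ACTB difference, and it did not pass in 11 of 20 alternatives, 9 of them without 1 array. The rise of HHEX by 204689_at differed between lines in 21 of 21 alternatives, by 0.83 to 1.01.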

How the results depend on the processing

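The count of genes called was 9 on feeders with the inhibitor and 9 with DMSO. The ACTB 3′ minus 5′ covariate gave 2 with the inhibitor and 0 with DMSO. Without the replicate block, that is without the line as a block, 3 genes were called with DMSO. Leaving out 1 line gave 5 to 8 with the inhibitor and 2 to 8 with DMSO, lowest without H1 and, with DMSO, also without H9. For the inhibitor against DMSO on feeders, 0 genes were called, and 0 to 0 without 1 line, but array weights called 5, all lower, in a fit that called 10.6% of all probe sets higher and 9.02% lower. Under those weights, whose fit stopped before it converged, EOMES was -0.50, MIXL1 -0.49 and GATA6 by 210002_at -1.67, the reverse of their signs without weights. For CM in H9, 2 genes were called, 1 by the mean of all probe sets and 1 to 3 without 1 array. For CM in HSF1, 1 gene was called, 2 with no filter, 3 with array weights, 2 with the ACTB covariate, 3 by the mean of all probe sets, 2 without both H9 UM arrays of high ACTB difference, and 1 to 2 without 1 array. For the difference of CM effects, 0 were called, 1 by the mean of all probe sets and 0 to 1 without 1 array. For HSF1 against H9 in UM, 1 was called, 2 with the ACTB covariate, 2 without both H9 UM arrays and 1 to 2 without 1 array. The cause of these changes was not tested, beyond the fewer samples in fits that leave out arrays. With the replicate block in the medium part, the counts were 1 in HSF1 and 2 in H9, and HHEX by 204689_at in H9 had an adjusted p of 0.0513. HHEX by 215933_s_at kept its call in both lines in 23 of 23 alternatives. Over all probe sets, 19824 were called on feeders with the inhibitor, 11798 after quantile scaling, 9404 without the block, 30864 with array weights and 2278 with the ACTB covariate. With DMSO 16622 were called, 9056 after quantile scaling, 5270 without the block, 27884 with array weights and 777 with that covariate. Without H1, 2954 were called with the inhibitor and 2835 with DMSO, and without H9 11777 and 2191. The median over all probe sets on feeders was -0.07 with DMSO, and -0.19 with arrays shifted to a common median. Signal near background limits the probe sets under 5.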
